A study of Mus musculus with 6 samples.

Results

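Expression of the C1q/TNF-related genes (C1qtnf1 to C1qtnf7) was examined in mouse primary mesangial cells by RNA-Seq. These cells sit between the capillary loops of the glomerulus, hold them together and make their matrix. The rule was the gene symbol, and the family was picked with the contrast between Control and TGF-β1 already known, so what this contrast gives for its members is a description and not a test. Of the 7 listed genes, 5 were measured (C1qtnf1, C1qtnf3, C1qtnf4, C1qtnf6 and C1qtnf7), among 19730 rows in all, and C1qtnf2 and C1qtnf5 were not analysed here. All cultures, at passage 3 to 6, were kept in medium with 25.5 mM glucose and 20% serum. The Control group (n = 3 libraries) is labelled as such without a further agent, and the other group (n = 3) received 10 ng/ml TGF-β1, the main profibrotic cytokine of the kidney, for 72 h. Nothing states whether the 3 libraries of a group came from separate animals or isolations, so the errors below measure the spread between libraries, which may be technical.

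C1q/TNF-related proteins, or CTRPs, are secreted relatives of the fat hormone adiponectin. A typical member has a collagen-like stalk and a globular C-terminal domain like that of complement C1q, which folds like tumour necrosis factor and assembles into trimers. They circulate or act locally on metabolism, inflammation, vessel wall and cartilage, and several have been studied in fibrosis. CTRP4 departs from the plan, with a pair of globular domains and no collagen stalk.

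Levels are given as FPKM, fragments per kilobase of transcript scaled to the mapped fragments of the library, so they can be compared between genes within a library. Steps in the lowest values put the depth at 10.1 M to 11.02 M mapped fragments per library, with M for mega. Smad7, an established target that encodes an inhibitory SMAD protein, was at 13.1, 12.7 and 9.75 FPKM in Control and at 39.4, 37.0 and 41.5 FPKM with TGF-β1. Among mesangial markers, Pdgfrb was at 32.0 to 41.1 FPKM in Control and 28.4 to 29.9 FPKM with TGF-β1. The contractile gene Acta2 was at 912 to 1090 FPKM in Control and 3590 to 4270 FPKM with TGF-β1. Tagln was at 451 to 570 and 1670 to 1910 FPKM in these groups, and Gata3 at 0.756 to 2.42 and 0.846 to 1.26 FPKM. Itga8, Thy1, Des and Pdgfra were at or near 0, with at most 0.174, 0.180, 0.550 and 0.217 FPKM.

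C1qtnf3, C1qtnf1 and C1qtnf6 are shown because they were the members with the highest levels and because their levels ran in different directions, up, down and with overlapping groups. Each sequence is the 250 bases before the start of the transcript that names the gene's row, on build mm9, read 5′ to 3′ along the gene. C1qtnf3 lies at chr15:10881837-10882086 on the plus strand, C1qtnf1 at chr11:118289267-118289516 on the plus strand and C1qtnf6 at chr15:78360056-78360305 on the minus strand. Capitals mark matches, on either strand, to CAGAC, a box that SMAD proteins bind, to the AP-1 motif TGANTCA, or to TATAAA, which is a TATA motif.
C1qtnf3: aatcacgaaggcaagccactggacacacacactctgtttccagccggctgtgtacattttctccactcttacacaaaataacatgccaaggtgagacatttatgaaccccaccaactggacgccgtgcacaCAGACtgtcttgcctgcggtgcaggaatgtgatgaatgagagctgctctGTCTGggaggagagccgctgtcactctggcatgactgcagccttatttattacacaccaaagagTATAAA
C1qtnf1: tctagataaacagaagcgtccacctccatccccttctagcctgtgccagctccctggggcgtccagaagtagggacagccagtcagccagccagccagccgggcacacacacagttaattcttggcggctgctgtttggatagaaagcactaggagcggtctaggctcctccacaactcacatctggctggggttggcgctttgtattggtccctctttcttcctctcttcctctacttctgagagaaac
C1qtnf6: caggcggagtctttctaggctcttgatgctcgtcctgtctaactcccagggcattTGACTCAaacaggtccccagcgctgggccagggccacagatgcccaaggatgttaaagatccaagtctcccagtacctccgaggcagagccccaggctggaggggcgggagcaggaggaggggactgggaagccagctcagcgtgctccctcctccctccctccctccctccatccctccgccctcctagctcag

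The C1qtnf3 window held 2 CAGAC matches and 1 TATAAA match, which ended at the last base before the annotated start. The C1qtnf6 window held 1 TGANTCA match, and the C1qtnf1 window held no match to the 3 motifs. No match overlapped another. Among 15987 protein-coding promoter windows of the same length, 40.8% held CAGAC, 4.94% held TGANTCA and 8.32% held TATAAA. GC content was 49.2% in the C1qtnf3 window, 55.2% in that of C1qtnf1 and 63.2% in that of C1qtnf6. These are matches of letters, and no binding was measured.

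C1qtnf3 was the member with the largest difference. It encodes CTRP3, a protein first described in cartilage and later as an adipokine. Its level was 0.815, 0.677 and 0.799 FPKM in Control replicates 1 to 3 and 54.3, 49.5 and 48.3 FPKM in TGF-β1 replicates 1 to 3. The groups lay far apart, and the libraries within each group were close together. The mean was 0.764 ± 0.0752 FPKM in Control and 50.7 ± 3.16 FPKM with TGF-β1 (SD, n = 3), a ratio of 66.4. After adding 1 to each value and taking log2, a step that shrinks differences of weakly expressed genes, the difference was 4.87 (SE 0.0858). It was the 10th highest of 11898 tested rows on that scale. The level in Control rested on few reads. If all of them belong to the 2338 nt transcript that names the row, it rested on about 15.9 to 19.2 fragments per library, against 1065 to 1263 with TGF-β1.

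The place of C1qtnf3 among the tested rows moved accordingly. Its mean in Control exceeded that of 1.5% of tested rows, and its mean with TGF-β1 exceeded that of 82.8%. C1qtnf3 passed the filter on low values (a mean of at least 1 FPKM over the 6 libraries) through the TGF-β1 group. Rows below this filter were left out of the ranking. Its place in Control therefore depends on the filter and is not its place among all measured rows. On mm9 the gene spans chromosome 15, 10882087 to 10909905, on the plus strand, and it has 2 annotated transcripts but a single row, so a ratio between the transcripts could not be formed. The rows nearest to C1qtnf3 by Euclidean distance of log2(FPKM + 1) over the 6 libraries were Aldh1a3 (distance 1.13), AA467197 (1.42) and Wnt9a (1.47). Aldh1a3, which encodes an enzyme of retinoic acid synthesis, was at 0.406 to 0.605 FPKM in Control and at 32.4 to 33.8 FPKM with TGF-β1. Wnt9a, a Wnt ligand, was at 0.833 to 2.03 and at 26.6 to 37.0 FPKM.

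Since C1qtnf3 is known from cartilage and fat, markers of both tissues were read beside it. Chondrocyte markers summed to 9.82 to 12.9 FPKM per library in Control and 11 to 16.5 FPKM with TGF-β1. Most of this was Sox9, at 7.76 to 10.1 FPKM in Control and 9.81 to 14.1 FPKM with TGF-β1. Its log2 difference was 0.45, with a 95% interval of 0.07 to 0.84 and a limma adjusted p of 0.0571 (0.0154 without TGF-β1 replicate 2, range 0.0147 to 0.165), and neither of the 2 tested markers of the 9 listed was called. The other tested marker, Col11a2, was at 1.12 to 1.9 FPKM in Control and 0.868 to 1.86 FPKM with TGF-β1. The defining genes Acan and Col2a1 reached at most 0.0138 and 0.638 FPKM in any library. Matn3, Hapln1 and Comp reached at most 0.0351, 0.0373 and 0.408 FPKM. Adipocyte markers summed to 12.5 to 14.8 FPKM in Control and 10.1 to 10.9 FPKM with TGF-β1. Nearly all of it was Pparg, at 5.18 to 8.05 FPKM, and Lpl, at 4.46 to 6.72 FPKM, neither of which was called. Adipoq and Fabp4 were listed at 0 in all libraries but Control replicate 3, where they were at 0.170 and 0.424 FPKM.

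C1qtnf1 ran the opposite way. It encodes CTRP1, a plasma glycoprotein also made in the vessel wall. Its level was 3.03, 3.64 and 2.76 FPKM in Control and 0.892, 1.03 and 1.42 FPKM with TGF-β1. Every TGF-β1 library was below every Control library. The means were 3.14 ± 0.452 and 1.11 ± 0.274 FPKM (SD, n = 3), a ratio of 2.83 between Control and TGF-β1, and the difference was -0.97 on the log2(FPKM + 1) scale (SE 0.147). A lower difference was found in 8.66% of tested rows. The gene spans chromosome 11, 118289517 to 118311277, on the plus strand. The transcript that names its row is a short one of 684 nt among 5, the longest of which has 2532 nt, and whether the value covers the whole gene is not stated. The value rested on about 4.71 to 19.4 fragments per library if it is of the short transcript and on 22.7 to 93.2 if it is of the longest.

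The nearest rows in level and pattern were Qpct (distance 0.316), Sema3b (0.366) and Gm15708 (0.379). The antisense RNA gene Gm11747 overlaps C1qtnf1 on the opposite strand and was at 1.06, 1.75 and 0.961 FPKM in Control and 0.692, 0.205 and 0.255 FPKM with TGF-β1. Whether reads were assigned by strand is not stated, so the 2 genes cannot be told apart here. Gm11747 was below the filter, and in the fit of all rows without the filter its adjusted p was 0.0361 (limma), with a range of 0.0361 to 0.205 over the alternatives.

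C1qtnf6 was the most abundant member in Control. It encodes CTRP6, which is known to restrain the alternative pathway of complement. It was at 6.81, 9.18 and 5.54 FPKM in Control and 6.09, 6.35 and 5.94 FPKM with TGF-β1. All TGF-β1 libraries lay within the range of Control, which was wide because of Control replicate 2. The means were 7.18 ± 1.85 and 6.12 ± 0.209 FPKM, and the difference was -0.17 on the log2(FPKM + 1) scale (SE 0.166), with a 95% interval of -0.58 to 0.23. Without Control replicate 2 the difference was -0.0051. The gene spans chromosome 15, 78353776 to 78360055, on the minus strand. The 2191 nt transcript that names its row is annotated as non-coding, so the share of this value that comes from the coding transcript is unknown. The nearest rows were Slc9a8 (distance 0.213), Pcdh19 (0.230) and Snx27 (0.270).

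C1qtnf4 and C1qtnf7 were barely detected. C1qtnf4, with the paired globular domains, was at 0.660, 0 and 0.935 FPKM in Control and at 0.251, 0 and 0.338 FPKM with TGF-β1. The groups overlapped because Control replicate 2 was listed at 0, as TGF-β1 replicate 2 also was. With the length of its 1290 nt transcript these values came to about 7.94, 0 and 11.03 fragments in Control and 2.98, 0 and 3.97 with TGF-β1, all within 0.063 of a whole number. The row carries the identifier of the other transcript, of 1365 nt, which gives 8.48 and 11.79 fragments in Control and values up to 0.483 from whole, so which transcript a row's value rests on is uncertain. The difference was -0.31 on the log2(FPKM + 1) scale (SE 0.261) and -0.47 in replicates 1 and 3 alone. The gene lies on chromosome 2, 90725943 to 90730683. C1qtnf7 (chromosome 5, 43906808 to 44010056) was listed at 0.0837 FPKM in Control replicate 1, or about 0.99 fragments of its 1274 nt transcript (1.32 of the 1630 nt transcript that names the row), and at 0 in the other 5 libraries, so no difference was detectable at this depth.

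**Figure D1:**
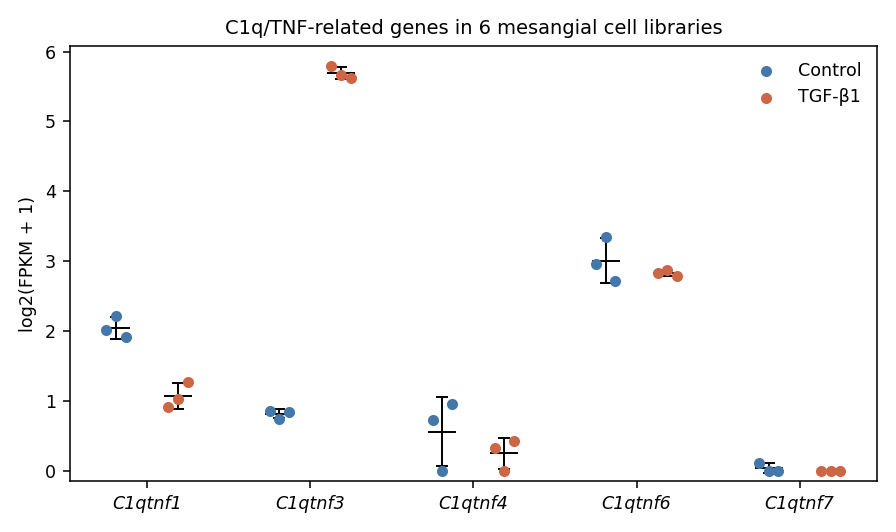
Level of the 5 measured members as log2(FPKM + 1), with 1 point per library, 3 per group, and the mean ± SD in black. The C1qtnf3 points of the TGF-β1 group stand far above those of Control, the C1qtnf1 points stand below, and the C1qtnf4, C1qtnf6 and C1qtnf7 groups overlap.

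Of the 5 measured members, 3 passed the filter, and limma with an adjusted p under 0.05 called 2 of these, 1 up and 1 down. Of all 11898 tested rows 48.1% were called, 24.5% up and 23.6% down. Control and TGF-β1 values were fully separated in the same 2 members and in 59.4% of tested rows. The median difference of the 3 members was -0.17 on the log2 scale, and that of all tested rows was -0.02. Since the members were picked with this contrast known, nothing is read from these counts.

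The make-up of the family was compared next, as the share of each member in the summed FPKM of the 5. The shares and the order take each row as the level of its gene, which is uncertain for C1qtnf1, C1qtnf4 and C1qtnf6, as described above. The sum was 10.0 to 13.5 FPKM in Control and 56.0 to 61.5 FPKM with TGF-β1. In Control, C1qtnf6 made up 55.2 to 68.0% of the sum, C1qtnf1 26.6 to 27.5% and C1qtnf3 5.02 to 7.96%. With TGF-β1, C1qtnf3 made up 86.3 to 88.2%, C1qtnf6 9.90 to 11.2% and C1qtnf1 1.45 to 2.53%. The order of levels in Control was C1qtnf6, C1qtnf1, C1qtnf3 and C1qtnf4, in which the ranges of C1qtnf3 and C1qtnf4 overlapped. With TGF-β1 the order was C1qtnf3, C1qtnf6, C1qtnf1 and C1qtnf4, and no ranges of neighbours in this order overlapped.

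Fam132a and Fam132b encode CTRP12 and CTRP15, 2 further proteins of the CTRP type that the symbol rule left out. They belong to a list drawn up with results of these data known, so their tests are not independent evidence. Fam132b, the gene of erythroferrone, a hormone that suppresses the iron regulator hepcidin, was at 0.277, 0.312 and 0.177 FPKM in Control and at 5.20, 5.06 and 4.70 FPKM with TGF-β1. It rose 19.5-fold, or by 2.25 on the log2(FPKM + 1) scale (SE 0.11, limma adjusted p 3.5e-05), with all TGF-β1 libraries above all Control libraries. It passed the filter through the TGF-β1 group alone, and without the filter its limma adjusted p was 7.64e-05. With its single annotated transcript of 2814 nt, the Control values rest on about 5.01 to 8.94 fragments and those of TGF-β1 on 132 to 148.

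Fam132a, the gene of adipolin, an insulin-sensitizing adipokine, was at 34.3, 35.8 and 15.8 FPKM in Control and at 15.3, 13.4 and 16.4 FPKM with TGF-β1. Control replicate 3 lay within the range of the TGF-β1 libraries, and the difference of -0.80 (SE 0.307) was not called (limma adjusted p 0.0734, range 0.00125 to 0.339 over the alternatives). Without Control replicate 3 it was -1.17, with a limma adjusted p of 0.00125. The measured members with Fam132a and Fam132b make 7 genes. Among these Fam132a was the most abundant in Control, with 60.7 to 74.6% of their summed FPKM. With TGF-β1 it made up 17.8 to 21.3% and C1qtnf3 62.6 to 66.2%.

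**Figure D2:**
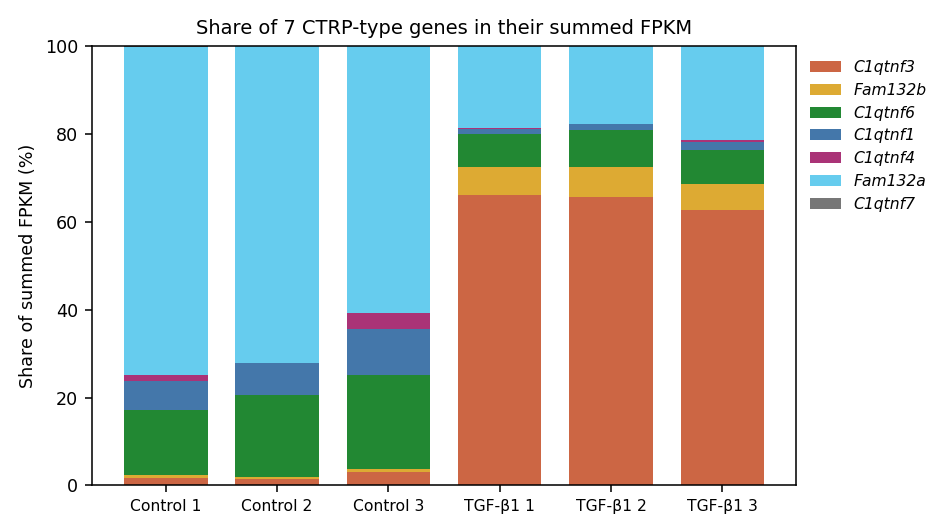
Share of each of 7 CTRP-type genes, the measured members with Fam132a and Fam132b, in their summed FPKM, in percent, with 1 bar for each of the 6 libraries. Fam132a takes 60.7 to 74.6% in Control, and C1qtnf3 takes 62.6 to 66.2% with TGF-β1.

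The wider group of genes with a C1q-type domain held 24 listed genes, Fam132a and Fam132b included, of which 15 were measured and 6 were tested. Of these 6, limma called 3 up and 1 down, 66.7% against 48.1% of all rows. Their median difference was 0.81 on the log2 scale. Besides Fam132b, both chains of collagen VIII rose, a short network collagen of vessel walls and basement membranes whose chains end in a C1q-type domain. Col8a1 was at 23.9, 23.6 and 22.2 FPKM in Control and at 85.7, 93.5 and 84.5 FPKM with TGF-β1, a 3.78-fold rise (log2 change 1.87, SE 0.0766, limma adjusted p 1.98e-05). Col8a2 rose from 0.161, 0.230 and 0.0674 FPKM to 3.12, 2.61 and 2.60 FPKM (log2 change 1.71, SE 0.13, limma adjusted p 0.00017). Col8a2 too passed the filter through the TGF-β1 group alone, as Fam132b did. Both are in the count, the share and the median above, which therefore depend on the filter. Of the other tested genes, Col8a1 had a log2 change of 1.87, Emilin1 of -0.10, Fam132a of -0.80 and Caprin2 of -1.24. Without the filter the limma adjusted p of Col8a2 was 0.000198.

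Caprin2, which encodes an RNA-binding protein with a C1q-related domain, fell from 8.89, 7.01 and 5.86 FPKM to 2.28, 2.29 and 2.85 FPKM (log2 change -1.24, SE 0.158, limma adjusted p 0.00127). Emilin1, a glycoprotein of elastic fibres, was at 5.56 to 9.74 FPKM in Control and 3.85 to 9.10 FPKM with TGF-β1, and its groups overlapped (adjusted p 0.832). In both groups its replicate 2 library was the lowest.

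The other 9 C1q-domain genes were below the filter and were read from the fit of all 19730 rows, which called 30.5% of rows, 14.6% up and 16.0% down. Of the 9, 2 were called, both down. Emilin2 fell from 0.443 to 0.806 FPKM in Control to 0.0986 to 0.156 FPKM in the treated libraries (limma adjusted p 0.00976), and Cbln3 from 0.301 to 0.583 FPKM to at most 0.149 FPKM (limma adjusted p 0.0176). The Cbln3 call was lost without Control replicate 1 or 3, without TGF-β1 replicate 1 or 2, in replicates 1 and 3 alone and with a replicate block, with limma adjusted p-values up to 0.0676. C1ql1 was at 0.142 to 0.354 FPKM in Control and 0.466 to 0.859 FPKM with TGF-β1, and it was not called (limma adjusted p 0.0597, range 0.0219 to 0.185).

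**Figure D3:**
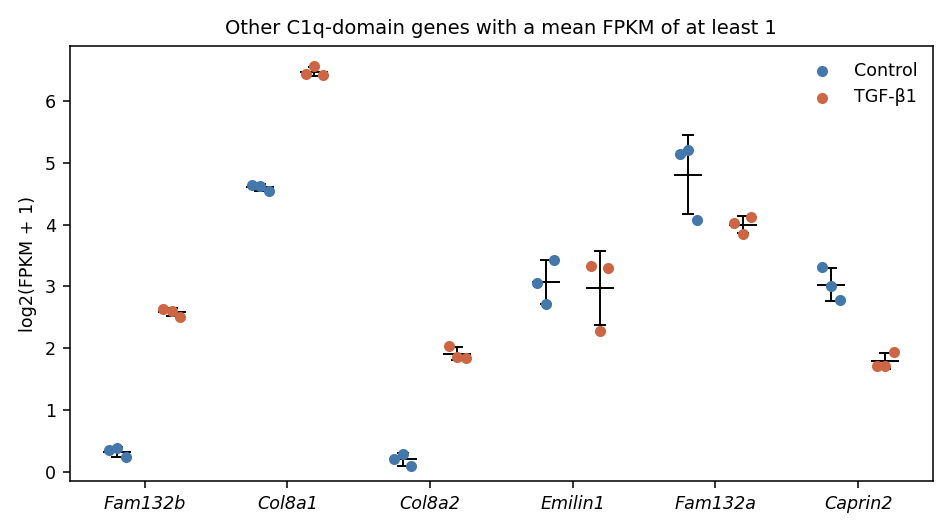
Level of the 6 tested C1q-domain genes outside the family rule, as log2(FPKM + 1), with 1 point per library and the mean ± SD in black. The groups stand apart in Fam132b, Col8a1, Col8a2 and Caprin2 and overlap in Emilin1 and Fam132a, where Control replicate 3 sits among the TGF-β1 libraries.

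Receptors and partners described for adiponectin and its relatives were then examined. This list, the AMPK and assembly lists and the marker lists were drawn up with results of these data known. Their tests are therefore not independent evidence. Of 10 listed genes 7 were tested, and limma called 4 up and 1 down (71.4%, against 48.1% of all rows, with a median log2 change of 0.43). Adipor1, a membrane receptor for adiponectin, rose from 61.5, 58.1 and 55.7 FPKM to 81.6, 87.0 and 82.3 FPKM, by 1.43-fold (log2 change 0.51, SE 0.0743, limma adjusted p 0.00218). Its relative Adipor2 rose from 8.73, 7.08 and 8.85 FPKM to 12.9, 15 and 11.6 FPKM, by 1.60-fold (log2 change 0.62, SE 0.128, limma adjusted p 0.00865). The adaptors of these receptors went in opposite directions. Appl1 rose from 6.12, 7.07 and 6.61 FPKM to 9.33, 9.20 and 9.18 FPKM (limma adjusted p 0.00644), and Appl2 fell from 40.1, 44.0 and 32.5 FPKM to 18.8, 22.8 and 20.7 FPKM (limma adjusted p 0.00268).

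Calr, the chaperone calreticulin, rose 1.63-fold (limma adjusted p 0.00566), with 531 to 688 FPKM in Control and 897 FPKM or more with TGF-β1. Its partner Lrp1, an endocytic receptor, was at 200 to 261 FPKM in Control and 237 to 326 FPKM with TGF-β1 and was not called (limma adjusted p 0.093, range 0.0265 to 0.425). Without TGF-β1 replicate 2 its adjusted p was 0.0265. Cdh13, a cadherin that binds adiponectin, had a log2 difference of -0.37 (limma adjusted p 0.126, and 0.0355 without TGF-β1 replicate 1).

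Subunits of AMP-activated protein kinase, the energy sensor that adiponectin receptors engage, and related genes gave 2 up and 1 down among 7 tested, or 42.9% against 48.1% of all rows. The catalytic subunits diverged. Prkaa1 rose from 15.6, 14.9 and 14.5 FPKM to 22.6, 23.0 and 20.0 FPKM (log2 change 0.51, limma adjusted p 0.00341), and Prkaa2 fell from 2.50, 2.36 and 2.53 FPKM to 1.22, 1.05 and 1.23 FPKM (log2 change -0.68, limma adjusted p 0.00284). Prkab2 was 1.44-fold higher with TGF-β1, with a limma adjusted p of 0.0484 that stayed under the threshold in 4 of 17 alternatives (range 0.0112 to 0.121) and in none that left out a library. Below the filter, the coactivator gene Ppargc1a fell from 0.489 to 0.969 FPKM to at most 0.0887 FPKM (limma adjusted p 0.00563, and 0.103 in replicates 1 and 3 alone).

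Genes of the endoplasmic reticulum that fold and modify collagen-stalked proteins such as adiponectin gave 4 up among 6 tested (66.7%, against 48.1% of all rows called and 24.5% called up). The count ranged from 4 to 6 over the alternatives. Plod2, a lysyl hydroxylase, rose 2.41-fold (log2 change 1.25, limma adjusted p 0.000125), and the oxidase gene Ero1l 1.91-fold (limma adjusted p 0.000867). P4hb rose 1.54-fold and Plod1 1.57-fold (limma adjusted p 0.012 and 0.0035). Erp44, a retention chaperone for adiponectin, was at 45.5 to 64.5 FPKM in Control and 66.6 to 71.4 FPKM in the treated libraries and was not called (limma adjusted p 0.0514, and 0.00676 without Control replicate 2).

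Genes that neighbour the members on mm9 were chosen by position alone. Of 20 neighbouring or overlapping genes 10 were tested, and limma called 3 up and 1 down (40.0%, against 48.1% of all rows). Amacr, a peroxisomal racemase gene that starts 1606 bp beyond the end of C1qtnf3 on the same strand, rose from 4.80, 3.32 and 3.59 FPKM to 6.91, 6.36 and 6.53 FPKM (1.69-fold, limma adjusted p 0.00817, and 0.056 in replicates 1 and 3 alone). Rai14, the nearest coding gene on the other side at a distance of 237701 bp, was at 17.5 to 20.0 FPKM in Control and 18.3 to 21.1 FPKM in the treated libraries, with no call (limma adjusted p 0.542).

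Around C1qtnf1, Cant1 was at 19.5 to 20.8 FPKM and 18.3 to 20.7 FPKM (limma adjusted p 0.62), and Engase had an adjusted p of 0.24. Mfrp, a membrane frizzled-related gene that shares its locus and strand with C1qtnf5, was at 0.354 to 0.558 FPKM in Control and 0.349 to 0.590 FPKM in the treated libraries, with no call (limma adjusted p 0.923). Usp2, the coding gene nearest to C1qtnf5 on its left, fell from 0.859 to 1.18 FPKM to 0.214 to 0.424 FPKM (limma adjusted p 0.00958 without the filter, and 0.085 in replicates 1 and 3 alone). Mcam, the nearest on its right, rose from 15.7 to 16.6 FPKM to 74.3 to 82.8 FPKM (4.83-fold, limma adjusted p 1.12e-05). Beside C1qtnf7, Cpeb2 rose 3.34-fold and Cc2d2a fell (log2 change -0.85), with limma adjusted p-values of 0.000638 and 0.00126.

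**Figure D4:**
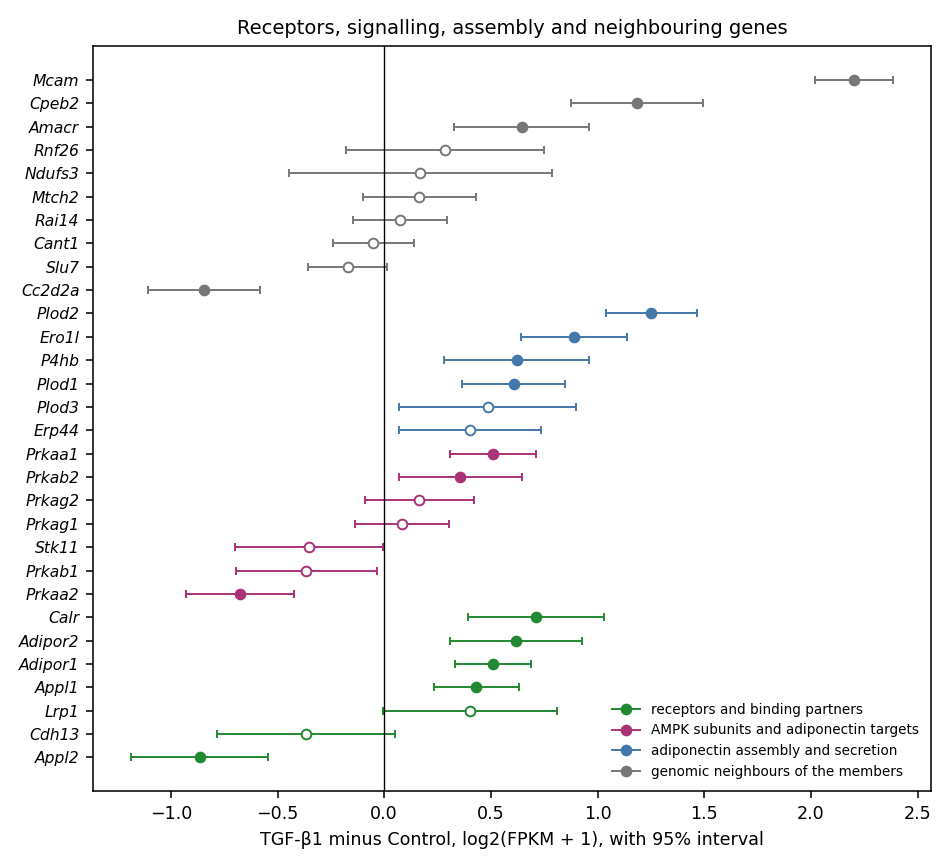
Difference between TGF-β1 and Control on the log2(FPKM + 1) scale with its 95% limma interval, for the tested receptor, AMPK, assembly and neighbouring genes. Filled points have an adjusted p under 0.05, and they include Adipor1, Adipor2 and Appl1 to the right of 0 and Appl2 to the left.

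Csf1r, listed among macrophage markers, and Cldn2, among epithelial markers, had the largest falls among the markers of other cell types on the log2(FPKM + 1) scale. Csf1r was at 5.52 to 7.37 FPKM in Control and 0.234 to 0.525 FPKM with TGF-β1. Cd68 of the same list was at 2.02 to 3.67 FPKM in Control and 1.78 to 2.68 FPKM with TGF-β1. It was not called (limma adjusted p 0.393). Ptprc, Lyz2, Itgam and Aif1 reached at most 0.0448, 0.0811, 0.359 and 0.760 FPKM. The 6 measured macrophage markers of 9 listed summed to 8.19 to 10.2 FPKM in Control and 2.26 to 3.61 FPKM with TGF-β1. The 6 measured epithelial markers of 8 listed summed to 33.3 to 35.7 FPKM in Control and 2.29 to 2.76 FPKM with TGF-β1. Cldn2 made up most of the sum in Control, with 32.0 to 33.5 FPKM, and was at 0.561 to 0.608 FPKM with TGF-β1. Krt18 of the same list rose from 0.150 to 0.386 FPKM to 1.38 to 1.81 FPKM (5.63-fold, limma adjusted p 0.00143 without the filter) and was most of the sum with TGF-β1, while Cdh1 reached at most 0.123 FPKM. Lrp2, also an epithelial marker, fell from 1.09 to 1.93 FPKM to 0.212 to 0.245 FPKM (limma adjusted p 0.00369 without the filter). In podocyte markers 3 of 3 tested genes were called down (Wt1, Synpo and Podxl), against 48.1% of all tested rows called and 23.6% called down. Podxl was not called without Control replicate 2 or TGF-β1 replicate 1 or 3, nor under quantile normalization (limma adjusted p 0.101). Wt1 was not called in replicates 1 and 3 alone (limma adjusted p 0.0944). Nphs1 was at 0.398 FPKM or less, and of the endothelial markers none of 6 measured reached a mean of 1 FPKM. Endothelial markers summed to 0.743 to 0.969 FPKM in Control and 0.44 to 1.14 FPKM with TGF-β1. The part of these shifts in the values of the C1q/TNF-related genes was not tested, and in bulk RNA a smaller share of a cell type cannot be told apart from less RNA per cell.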

How the data were processed

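RNA-Seq was done on 6 libraries of primary mouse mesangial cells. Reads of low quality were discarded by the authors, who aligned the remainder to mm9 with TopHat (TopHat2 2.0.11 in the submitters' processing notes), and deposited FPKM values estimated with Cufflinks, with no scaling between libraries stated. FPKM depends on the transcript length used, and rows carry 1 transcript identifier each. The authors tested differential expression with a count model. Counts were not used here. Values were compared as log2(FPKM + 1) with limma 3.58.1 in R 4.3.3 (trend, two-sided, Benjamini-Hochberg) over the 11898 rows whose mean FPKM reached 1. Genes below this filter were read from the same fit over all 19730 rows. The model was tested on simulated data. Depth came from steps of low values in genes with a single transcript, at an assumed fragment length of 200 nt, with 99.4 to 99.8% of values per library within 0.08 of a whole number. It is approximate. Locations, neighbours and promoters came from GENCODE M1 and the NCBIM37 (mm9) genome. Named genes were the members, the lists, neighbours and the 3 rows nearest to each tested member. Members and lists were chosen with earlier results of these data known. Some marker genes are not reported here. The alternatives covered pseudocount, filter, scaling, trend, left-out libraries and a replicate block.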

Additional observations from a re-analysis of the deposited data

How the results depend on the processing

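The list counts and 102 named or listed genes were recomputed under 17 alternatives, 2 of them chosen after seeing the data (protein-coding rows of at least 300 nt, and replicate 2 as a batch term). The count of changed genes, 5721, ranged from 4195 in replicates 1 and 3 alone to 6026 without a filter. C1qtnf1 and C1qtnf3 were called wherever they were tested and the other members in no alternative, with log2 differences of 4.82 to 5.88 for C1qtnf3 and -1.43 to -0.78 for C1qtnf1. A filter at a mean FPKM of 3 tested fewer genes by construction, C1qtnf1 not among them, and left 1 called member, 2 C1q-domain genes and 1 AMPK gene. Of the 102 genes, 79 kept their result, called or not called, in every alternative. The 79 include genes near 0 FPKM, such as Adipoq and Lyz2, that were called in no setting. The count therefore does not measure how stable the calls were. The result of 23 genes changed, among them Gm11747, Prkab2, Vwf and Pdgfrb, and the cause was not tested. Whether libraries with the same replicate number share a batch is not stated and cannot be told here. Deviations from group means correlated at 0.0921, 0.232 and 0.0853 across genes for numbers 1 to 3. Between unlike numbers the correlations were -0.194 to 0.117. The highest was that of replicate 2, whereas Control replicate 1 correlated best with TGF-β1 replicate 3, at 0.117. With a replicate block, 5391 genes, 2 members, 4 C1q-domain genes and 6 receptor genes were called, with an adjusted p of 0.0471 for Lrp1, 0.0318 for C1ql1, 0.0489 for Mmrn2, 0.05 for Cbln3 and 0.0805 for Gm11747. Depth limits C1qtnf4 and C1qtnf7, which rest on few fragments.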
